A study of Mus musculus with 12 samples.

Results

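The Dlk1-Dio3 locus on mouse chromosome 12 is an imprinted cluster, followed here through its 6 best-known genes, Dlk1, Meg3, Rian, Mirg, Rtl1 and Dio3. They were chosen by symbol from a deposited table of 24098 genes, and all 6 symbols were present. Of these, 5 reached 1 FPKM (fragments per transcript length and sequencing depth, so that levels of genes can be compared per length) in at least 1 library, as did 14178 genes of the whole table. Rtl1 did not.

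Messenger RNA had been sequenced from mouse embryonic fibroblasts (MEFs) with a GFP reporter at Oct4, from cells collected while these fibroblasts were reprogrammed, and from established stem cells. Per the labels, the MEFs were infected for 24 h with pMXs retroviruses for Sox2, Klf4, Oct4 and c-Myc (OSKM) and kept without feeder cells in FF medium, which holds serum replacement, LIF, ascorbic acid, bFGF, CHIR99021 and N-2. D0 were the starting MEFs, and D3 were unsorted cells of day 3. Thy-1, a fibroblast surface protein, divided the cells of day 6 into D6T- and D6T+ and those of day 9 into D9T- and D9T+. SSEA-1, a sugar on the surface of pluripotent cells, divided those of day 12 into D12S+ and D12S- and those of day 16 into D16S+ and D16S-. Thy-1- and SSEA-1+ cells form what the study calls successful reprogramming, and Thy-1+ and SSEA-1- cells the unsuccessful route. iPSCs and mESCs of the ES-D3 line were the end points, both in FF medium per the labels. The study's methods also name mESC and KOSR media, for reprogramming and for the stem cells, and a range of infection times. The clone and passage of the iPSCs and the sex of any of the cells were not given in the sources used here. Each of the 12 conditions had 1 library, and without replicates no difference could be tested. Levels were compared as log2(FPKM + 1), which understates differences of low genes, and a difference of 2-fold on that scale was counted. In these bulk libraries, fewer cells that transcribe a gene and less RNA per cell cannot be told apart.

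The labels were set beside markers first. The summed level of 7 fibroblast genes was 6131 FPKM in D0, 53.0 in iPSCs and 49.6 in mESCs, and that of 6 pluripotency genes was 2.11, 3423 and 4019 FPKM. Of the 6 pluripotency genes, 2 were 2-fold lower in iPSCs than in mESCs and 0 were 2-fold higher. They were Zfp42 at 58.6 against 173 FPKM and Tdgf1 at 176 against 386 FPKM. Depth relative to D0, read from the smallest FPKM steps, lay between 0.967 in D9T+ and 1.56 in D6T-.

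Genes of an imprinted cluster are transcribed mainly from the copy of 1 parent. At this locus the maternal copy gives long noncoding RNAs that host microRNAs and small nucleolar RNAs, and the paternal copy gives the proteins DLK1, RTL1 and DIO3. Methylation of an intergenic control region upstream of Meg3 sets which genes a chromosome uses, and in many mouse iPSC lines this region becomes methylated on both copies, which silences the maternal RNAs.

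A pair of DNA stretches and 7 microRNAs show what kind of sequence the locus holds. The 250 bases before the table's start of Meg3, from which the maternal RNAs begin, and before that of Dio3, at the far end of the locus, were read from the mm9 genome (chr12:110778956-110779205 and chr12:111517190-111517439, both on the plus strand). Capitals mark CG, the dinucleotide that DNA methylation acts on.
Meg3: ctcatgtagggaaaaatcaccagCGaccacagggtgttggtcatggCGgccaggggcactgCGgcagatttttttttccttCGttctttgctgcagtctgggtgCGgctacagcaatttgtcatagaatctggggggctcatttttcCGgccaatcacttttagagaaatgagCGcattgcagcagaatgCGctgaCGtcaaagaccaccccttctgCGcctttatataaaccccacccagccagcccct
Dio3: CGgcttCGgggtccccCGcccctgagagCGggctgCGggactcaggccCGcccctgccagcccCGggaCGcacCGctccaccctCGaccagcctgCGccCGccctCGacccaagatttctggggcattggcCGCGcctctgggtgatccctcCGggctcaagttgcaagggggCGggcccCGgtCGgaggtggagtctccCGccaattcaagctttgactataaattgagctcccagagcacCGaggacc
The Meg3 window held 10 CG, which is the median of 19528 such windows, and the Dio3 window held 21, a number reached by 22.5% of windows. The Dlk1 window held 8 CG, and that of Rtl1 3. On both strands, 3 motifs were searched. TGACGTCA, the cyclic AMP response element, stood at bases 57 to 50 before the start of Meg3 and in 2.12% of all windows. TGCCGC, the core that ZFP57 binds when methylated, stood at bases 190 to 185 on the opposite strand in Meg3 (as GCGGCA) and in 11.0% of all windows. TATAAA stood at bases 25 to 20 before Meg3, overlapping a copy on the opposite strand at bases 29 to 24, and at bases 31 to 26 before Dio3. It was in 11.9% of all windows. These matches describe letters and are not evidence of binding.

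The microRNAs are named in the table as 61 rows, and all 61 were matched by symbol to RefSeq (GRCm38.p6), where they gave 113 mature names with 104 different seeds. The seed, bases 2 to 8, pairs with target mRNAs and is in capitals. The first pair lies opposite the Rtl1 coding strand, the next within Rian, and the last 4 are pairs in the cluster between Rian and the end of Mirg that share a seed, GGUAGAC or GGUUGUC.
miR-127-3p: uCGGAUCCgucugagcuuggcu
miR-433-3p: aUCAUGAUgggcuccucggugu
miR-370-3p: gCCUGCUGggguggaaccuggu
miR-379-5p: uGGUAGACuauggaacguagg
miR-1193-5p: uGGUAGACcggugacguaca
miR-494-5p: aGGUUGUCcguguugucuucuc
miR-410-5p: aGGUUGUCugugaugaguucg
Each of these 7 matched chromosome 12 of mm9 exactly once, on the plus strand. miR-127-3p was at chr12:110831098-110831119 and miR-433-3p at chr12:110829991-110830012, both inside the table's Rtl1 interval, whose gene is on the minus strand. miR-379-5p was at chr12:110947275-110947295, between the table's Rian and Mirg intervals. miR-410-5p was at chr12:110981939-110981959, inside the table's Mirg interval.

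Meg3 (chromosome 12, 110779206 to 110809939, plus strand), a long noncoding RNA of the maternal copy, had the highest level per length of the 6 genes in every library. The D0 library held 123 FPKM of it and the D3 library 19.2 FPKM. Among the Thy-1 fractions it was at 24.8 FPKM in D6T-, 51.5 in D6T+, 137 in D9T- and 156 in D9T+. Among the SSEA-1 fractions it was at 201 FPKM in D12S+, 142 in D12S-, 132 in D16S+ and 162 in D16S-. iPSCs held 63.0 FPKM and mESCs 32.2 FPKM. Meg3 was therefore low on days 3 and 6, near or above the starting level from day 9 to day 16, and lower again in both stem cell libraries.

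Rian (110842155 to 110899921, plus strand), the RNA that hosts small nucleolar RNAs, went through the same low and high days. Its level was 42.6 FPKM in D0, 11.1 in D3, 8.47 in D6T-, 21.5 in D6T+, 46.5 in D9T- and 37.4 in D9T+. It was 45.8 FPKM in D12S+, 35.0 in D12S-, 27.3 in D16S+, 31.5 in D16S-, 17.4 in iPSCs and 10.1 in mESCs. Mirg (110973191 to 110987667, plus strand), which hosts a large group of the microRNAs, was at 12.3 FPKM in D0, 2.84 in D3, 2.33 in D6T-, 3.62 in D6T+, 18.3 in D9T- and 16.7 in D9T+. It was at 23.0 FPKM in D12S+, 13.4 in D12S-, 18.6 in D16S+, 15.5 in D16S-, 10.4 in iPSCs and 4.63 in mESCs. The lowest of the 12 libraries was D6T- for both Rian and Mirg, and D3 for Meg3.

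**Figure D1:**
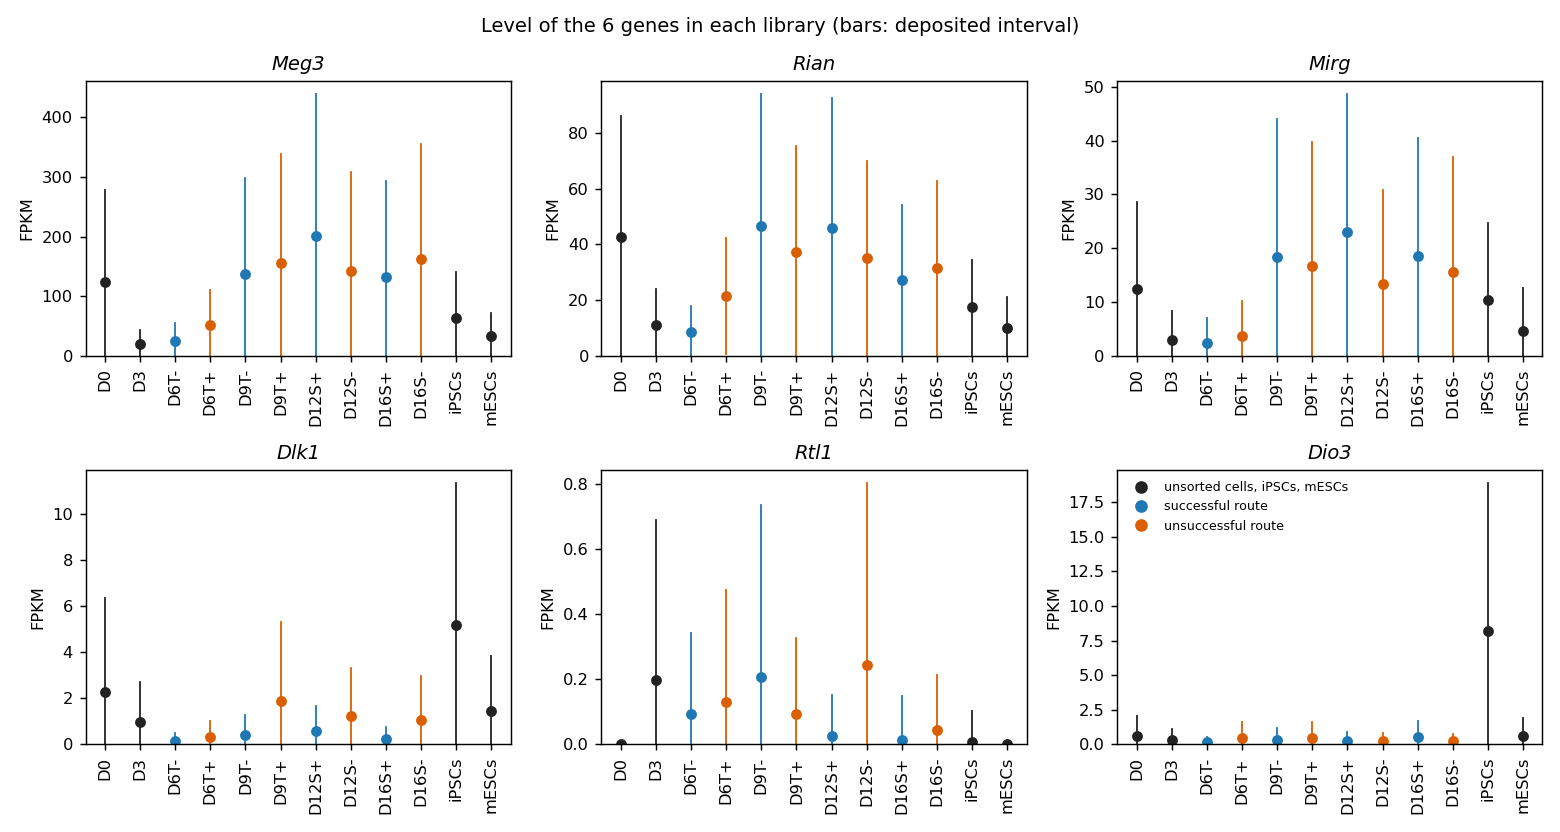
Deposited FPKM of Meg3, Rian, Mirg, Dlk1, Rtl1 and Dio3 (linear axes, each its own) in the 12 libraries. Points are the FPKM and bars the interval that cuffdiff gave to it, which holds no measured replicate variation. Meg3, Rian and Mirg are low in D3, D6T- and D6T+, and Dio3 stands apart in iPSCs at 8.16 FPKM.

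To describe the first days of induction, D3 was compared with D0. The study's methods name a medium with foetal bovine serum for growing MEFs. Induction and any change of medium can therefore not be told apart in this comparison. On the log2(FPKM + 1) scale Meg3 was lower by a difference of -2.62, Rian by -1.85 and Mirg by -1.79. Those 3 of the 5 genes above 1 FPKM were at least 2-fold lower, against 8.67% of all genes 2-fold lower and 14.4% 2-fold apart in either direction. Dlk1 differed by -0.74, or by -1.16 with a pseudocount of 0.1, and Dio3 by -0.29. Meg3 kept 15.6% of its D0 level, Rian 26.0% and Mirg 23.1%. The fibroblast sum was 1654 FPKM in D3 against 6131 in D0, with 6 of 7 markers 2-fold lower and none at 0. Other markers shifted too. The muscle sum was 155 FPKM in D3 against 264 in D0, with 2 of 4 markers 2-fold lower. The epithelial sum was 23.2 against 5.07 FPKM, with 3 of 5 markers 2-fold higher. Of 4 neural markers, 1 was 2-fold higher, Tubb3 at 133 against 14.8 FPKM. The part of these shifts in the lower level of the 3 RNAs was not tested.

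On day 6 the Thy-1- fraction was below the Thy-1+ fraction. The difference was -1.03 for Meg3, -1.25 for Rian, -0.47 for Mirg, -0.20 for Dlk1 and -0.37 for Dio3. Meg3 and Rian were at least 2-fold lower, as were 9.47% of all genes, and 12.4% of all genes were 2-fold apart in either direction. With a pseudocount of 0.1 Dio3 also passed it, at -1.21. The fibroblast sum was 222 FPKM in D6T- and 2008 in D6T+, with 6 of 7 markers 2-fold lower. The epithelial sum was 85.6 FPKM in D6T- and 52.1 in D6T+, with 2 of 5 markers 2-fold higher. Among markers above 1 FPKM, 1 of 3 for extraembryonic endoderm and 1 of 2 for leukocytes were 2-fold lower. The part of these shifts in the difference was not tested. In both fractions the RNAs were still below D0: Meg3 was at 20.1% of D0 in D6T- and at 41.7% in D6T+.

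Between days 6 and 9 all 3 RNAs were higher on the later day in Thy-1- cells. D9T- exceeded D6T- by 2.42 for Meg3, 2.33 for Rian and 2.54 for Mirg, whereas 5.06% of all genes were 2-fold higher and 6.19% 2-fold apart in either direction. These are FPKM ratios of 5.51, 5.49 and 7.86. D9T+ exceeded D6T+ by 1.58 for Meg3, 1.94 for Mirg and 0.77 for Rian, where 4.92% of all genes were 2-fold higher and 6.30% 2-fold apart. Dlk1, which codes for a transmembrane protein related to Notch ligands, also passed 2-fold in the Thy-1+ cells, with a difference of 1.13. Markers moved over the same days. The pluripotency sum was 4.47 FPKM in D6T- and 139 in D9T-, and 2.23 in D6T+ and 29.5 in D9T+, with 5 of 6 markers 2-fold higher in each. The epithelial sum was 85.6 and 193 FPKM in D6T- and D9T- and 52.1 and 105 in D6T+ and D9T+, with 3 of 5 markers 2-fold higher in each. The trophoblast sum was 0.439 and 12.9 FPKM in D6T- and D9T-. Of the 4 trophoblast markers that reached 1 FPKM in any library, 1 was 2-fold higher, Krt7 at 0.409 and 12.2 FPKM. In D6T+ and D9T+ the trophoblast sum was 0.787 and 8.65 FPKM. Of 2 leukocyte markers above 1 FPKM, 2 were 2-fold higher in D9T- than in D6T-, and 0 in D9T+ than in D6T+. The neural sum was 95.6 and 48.7 FPKM in D6T- and D9T-, with 1 of 4 markers 2-fold higher and 1 lower. The muscle sum was 16.8 and 7.04 FPKM there, with 1 of 4 markers 2-fold lower. The fibroblast sum was 222 and 203 FPKM in the Thy-1- cells and 2008 and 1777 FPKM in the Thy-1+ cells. The part of cells with these markers in the higher RNAs of day 9 was not tested. Both comparisons were chosen after the values had been seen.

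**Figure D2:**
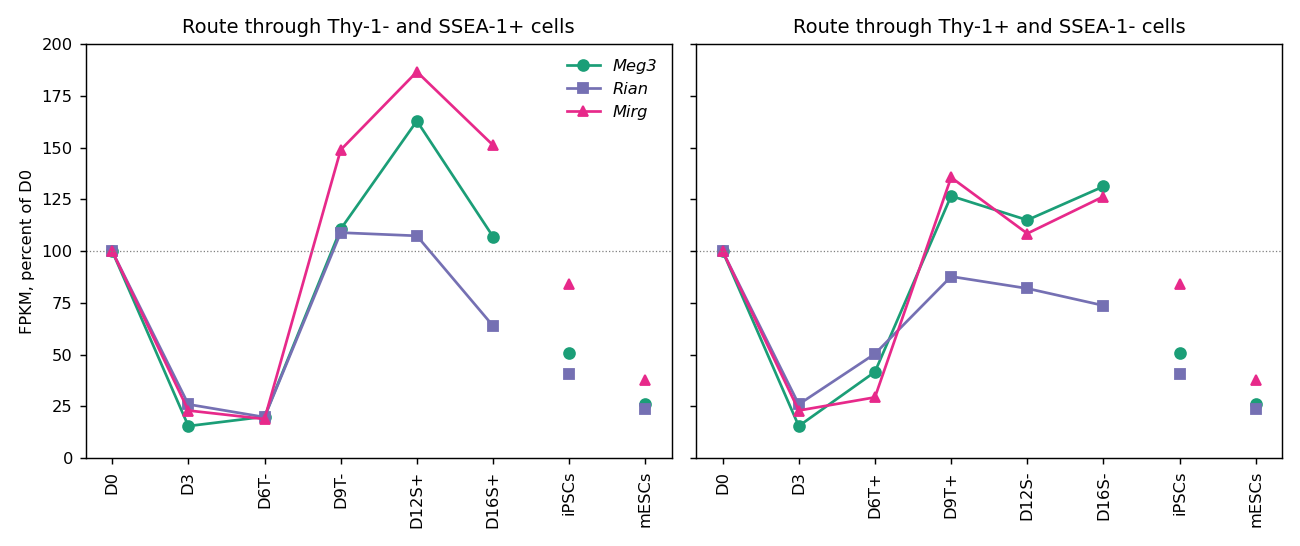
FPKM of Meg3, Rian and Mirg as a percent of their own D0 level (y axis) along the successful route (left) and the unsuccessful route (right), with iPSCs and mESCs as unconnected points. All 3 RNAs lie at or under 50.4% of D0 on days 3 and 6, and between 63.9% and 187% from day 9 to day 16.

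For Meg3 and Rian the fractions of days 9, 12 and 16 differed by less than those of day 6, whereas for Mirg day 12 and for Dlk1 all 3 later days differed by more. D9T- differed from D9T+ by -0.19 for Meg3, 0.30 for Rian and 0.13 for Mirg, whereas Dlk1, at 0.411 and 1.87 FPKM, was 2-fold lower in D9T- with a difference of -1.02 (6.45% of all genes were 2-fold lower and 8.26% 2-fold apart). On day 12 the SSEA-1+ fraction was above the SSEA-1- fraction by 0.50 for Meg3, 0.38 for Rian and 0.74 for Mirg, and none of the 5 genes passed 2-fold (7.81% of all genes). On day 16 the differences were -0.29 for Meg3, -0.20 for Rian, 0.24 for Mirg and -0.76 for Dlk1, and again none passed 2-fold, although 27.0% of all genes did. Dlk1, at 0.220 and 1.06 FPKM, passed it with a pseudocount of 0.1, at -1.86. The pluripotency sum was 4674 FPKM in D16S+ and 130 FPKM in D16S-, so the fractions differed widely elsewhere.

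Compared with the starting fibroblasts, D16S+ cells were 0.10 higher for Meg3, 0.56 higher for Mirg and lower for Rian with a difference of -0.63. Of the 5 genes only Dlk1, with a difference of -1.43, passed 2-fold, where 20.9% of all genes were 2-fold lower and 40.9% 2-fold apart. In the last step, from D16S+ to iPSCs, Meg3 differed by -1.06, Rian by -0.62 and Mirg by -0.79, while Dlk1 differed by 2.34 and Dio3 by 2.60. Meg3 and Dlk1 passed 2-fold (12.1% of all genes). Dio3 reached 1 FPKM in iPSCs alone, so the filter itself made it higher there, and it is left out of the counts that involve iPSCs. Against D0, iPSCs differed by -0.96 for Meg3, -1.25 for Rian, -0.23 for Mirg, 0.91 for Dlk1 and 2.50 for Dio3, and Rian passed 2-fold (40.3% of all genes). mESCs differed from D0 by -1.91 for Meg3, -1.98 for Rian and -1.24 for Mirg, all past 2-fold (21.9% of all genes were 2-fold lower and 42.6% 2-fold apart). These comparisons share D0, D16S+ or iPSCs, so they are not independent of each other.

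iPSCs and mESCs were then compared directly. Meg3, Rian, Mirg and Dlk1 were all listed higher in iPSCs. Dio3, kept through iPSCs alone, is given as a value. The difference was 2.54 for Dio3, 1.34 for Dlk1, 1.01 for Mirg, 0.95 for Meg3 and 0.73 for Rian, against a median of -0.01 over all genes. Of the 4 counted genes, Dlk1 and Mirg were at least 2-fold higher, as were 6.79% of all genes, and 14.2% of all genes were 2-fold apart in either direction. Mirg and Meg3 lay next to that threshold: with libraries scaled by a median-of-ratios factor Mirg was at 0.996, and with libraries scaled to the same total Meg3 was at 1.06. In FPKM the ratio of iPSCs to mESCs was 14.3 for Dio3, 3.59 for Dlk1, 2.24 for Mirg, 1.96 for Meg3 and 1.72 for Rian. The deposited intervals of the 2 libraries overlapped for all 5 genes, as they did in every comparison made here. Nearly all of these intervals began at 0, such as that of Dio3 in iPSCs from 0 to 18.9 FPKM. The overlap therefore does not set this comparison apart. The maternal RNAs were present in the iPSC library, with Meg3, Rian and Mirg at 51.1%, 40.7% and 84.2% of D0.

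Markers of other cell types also differed between these 2 libraries. Among 5 trophoblast markers, Krt7 was at 133 FPKM in iPSCs and 5.22 in mESCs and Cdx2 at 2.71 and 0.156. Krt7 was 2-fold higher. Cdx2 reached 1 FPKM in iPSCs alone, as did Gcm1 at 1.45 against 0.378 FPKM, so the filter itself made both higher there. Elf5 was at 0.406 against 0.0676 FPKM, not 2-fold apart, and Tpbpa was listed at 0 in both. The summed level was 138 against 5.82 FPKM, most of it Krt7. The epithelial sum of 5 genes was 771 against 213 FPKM, with Krt8 and Krt14 2-fold higher. The muscle sum of 4 genes was 92.6 against 21.0 FPKM, and only Acta1, at 67.2 against 2.52 FPKM, was 2-fold higher. Des was at 25.3 against 17.8 FPKM. Myog, at 0.126 against 0.235 FPKM, and Myod1, at 0 against 0.444 FPKM, were listed lower in iPSCs. The extraembryonic endoderm sum of 4 genes was lower in iPSCs, 4.00 against 11.2 FPKM. Whether cells of these types were present, and their part in the levels of Dlk1 and Dio3, was not tested.

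**Figure D3:**
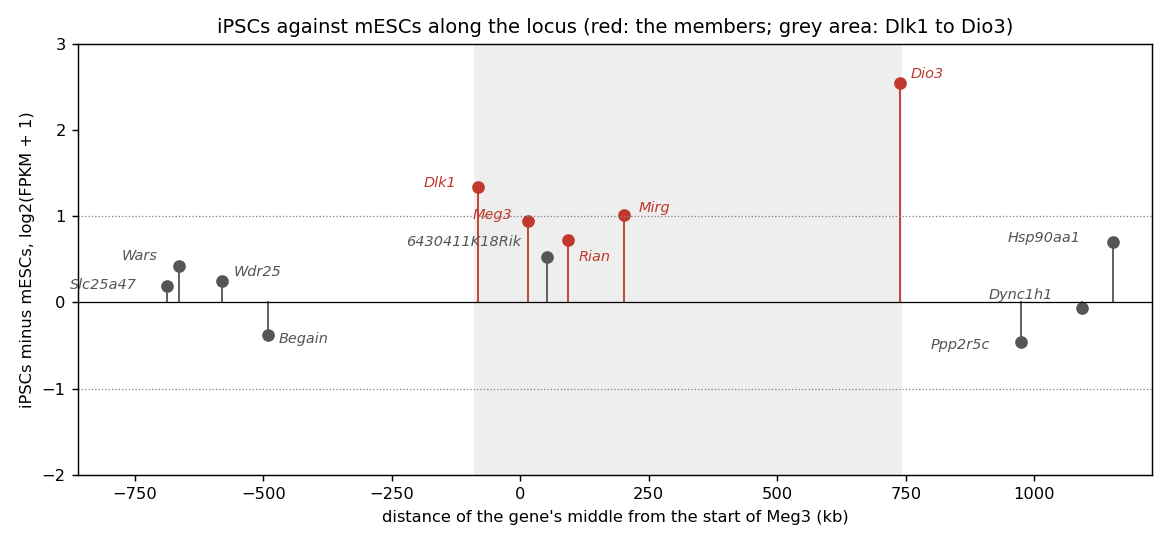
Difference between iPSCs and mESCs in log2(FPKM + 1) (y axis) for genes above 1 FPKM in at least 1 library, against the distance in kb of the gene's middle from the start of Meg3 (x axis). The 5 members (red) lie between 0.73 and 2.54, and the other genes of the locus and its flanks (dark grey) between -0.45 and 0.71, inside the dotted 2-fold lines. Dio3, at 2.54, was kept through iPSCs alone.

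Of the paternally expressed genes, Dlk1 (110691033 to 110701546, plus strand) was at 2.28 FPKM in D0, 0.964 in D3, 0.143 in D6T-, 0.314 in D6T+, 0.411 in D9T- and 1.87 in D9T+. It was at 0.558 FPKM in D12S+, 1.21 in D12S-, 0.220 in D16S+, 1.06 in D16S-, 5.16 in iPSCs and 1.44 in mESCs. On all 4 sorted days the fraction of the unsuccessful route was listed higher than its partner, and iPSCs were the highest library.

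Dio3 (111517440 to 111519307, plus strand) codes for the deiodinase that inactivates thyroid hormone. It was at 0.615 FPKM in D0, 0.322 in D3, 0.154 in D6T-, 0.487 in D6T+, 0.343 in D9T- and 0.469 in D9T+. It was at 0.257 FPKM in D12S+, 0.224 in D12S-, 0.512 in D16S+, 0.214 in D16S-, 8.16 in iPSCs and 0.570 in mESCs. Its values are whole multiples of what 1 fragment is worth, which gave 334 fragments in iPSCs, 22 in mESCs, 29 in D16S+, 23 in D0 and 8 to 29 over all libraries but iPSCs. The iPSC to mESC ratio of 14.3 had a 95% interval of 9.29 to 23.1, and the iPSC to D16S+ ratio of 15.9 one of 10.9 to 24.1, both for counting error only. Dio3 passed the filter through iPSCs alone, its highest library, so the counting intervals given here test no difference. The Poisson interval of iPSCs, 299 to 372 fragments, lay apart from that of every other library. Among the others, neighbours in the order of levels had overlapping intervals. Libraries further apart in that order did not always: D16S+ had 19.4 to 41.6 fragments and D16S- 3.45 to 15.8. These intervals are not adjusted for depth, which relative to D0 was 1.51 in D16S+ and 0.999 in D16S-.

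Rtl1 (110828379 to 110833613, minus strand), a gene derived from a retrotransposon and needed in the placenta, stayed below 1 FPKM in all libraries. It was listed at 0 in D0 and mESCs, and at 0.199 FPKM in D3, 0.0921 in D6T-, 0.128 in D6T+, 0.206 in D9T- and 0.0932 in D9T+. It was at 0.0260 FPKM in D12S+, 0.243 in D12S-, 0.0120 in D16S+, 0.0450 in D16S- and 0.00822 in iPSCs. In fragments these were 33 in D3, 16 and 18 in D6T- and D6T+, 25 and 10 in D9T- and D9T+, 3 and 29 in D12S+ and D12S-, 2 and 5 in D16S+ and D16S-, and 1 in iPSCs. A count of 0 has a Poisson interval that reaches 3.69 fragments. D12S- was above D12S+ by a ratio of 9.36, with a counting interval of 2.90 to 48.0. D12S- was also the highest library for Rtl1, so this interval, for counting error only, tests no difference. Among the other pairs of fractions, D6T+ and D16S- were listed above their partners, whereas D9T+ was listed below D9T-.

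The same interval holds 6430411K18Rik, the antisense RNA of Rtl1 from the maternal copy. It had 0 to 10 fragments in 10 of the libraries, about 55 in D16S+ and 23 in iPSCs. The D16S+ value was 54.7 before rounding and was the only value recovered that lay further than 0.15 from a whole number. Its level was 1.43 FPKM in D16S+ and 0.237 in D16S-, a ratio of 6.03 with a counting interval of 2.62 to 17.3. It reached 1 FPKM in D16S+ alone, so the filter itself made it higher there. In iPSCs it was at 0.831 FPKM against 0.269 in mESCs, a ratio of 3.09 with an interval of 1.29 to 8.54. Both intervals are for counting error only and test no difference. The library kit is named as a stranded one in the labels and as an unstranded one in the study's methods, and whether counting used strand is not stated. Reads of Rtl1 and of its antisense RNA can then not be told apart with certainty, but the fragments assigned to them did not go together: Rtl1 had 2 fragments in D16S+ and 33 in D3, where 6430411K18Rik had 55 and 8. Dio3os, on the minus strand beside Dio3, had 19 fragments in iPSCs, 0 in mESCs, 12 in D0 and 1 to 8 in the others.

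**Figure D4:**
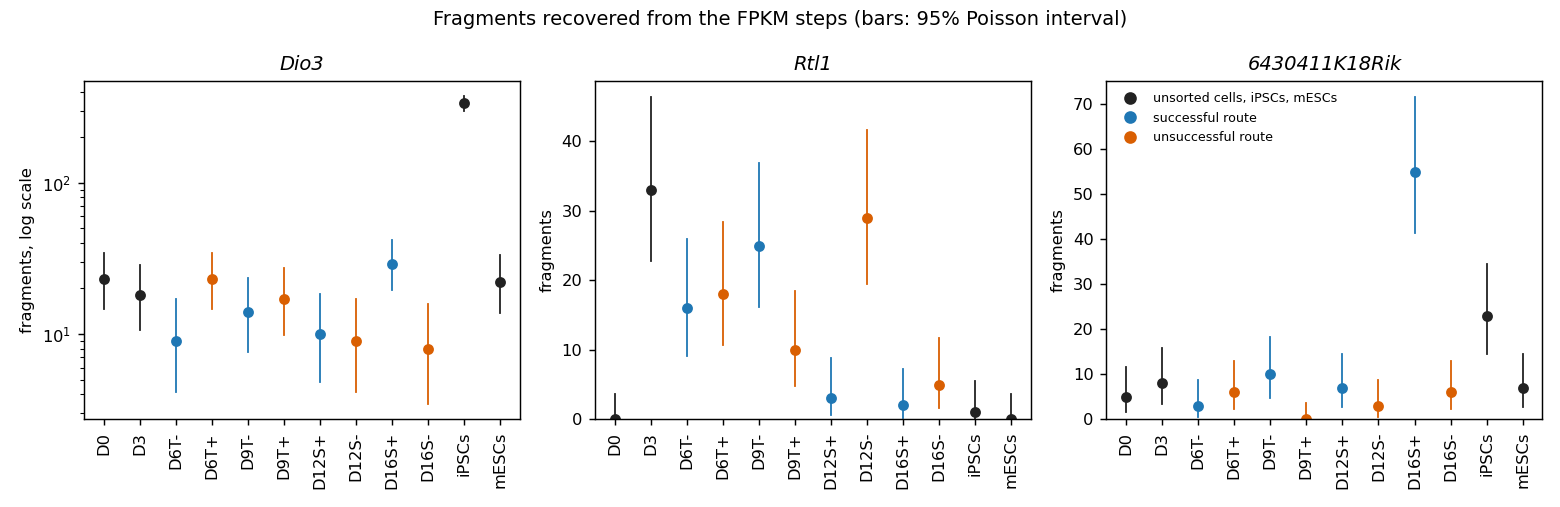
Whole fragments recovered from the FPKM of Dio3 (log axis), Rtl1 and 6430411K18Rik (linear axes) in the 12 libraries, not adjusted for depth. Bars are exact 95% Poisson intervals, for counting error only. Dio3 stands at 334 fragments in iPSCs and at 8 to 29 elsewhere, and 6430411K18Rik is highest in D16S+ at 55, rounded from 54.7.

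The table holds 77 rows between the outer ends of Dlk1 and Dio3, over 828 kb, and 9 of them had a value above 0 in any library. Of the 61 microRNA rows, 60 were listed at 0 in all 12 libraries. The exception was Mir433 at 7.26 FPKM in D12S+ and 0 elsewhere. The 7 small nucleolar RNA rows within Rian were all at 0. Libraries were made from polyA RNA, which leaves out mature microRNAs and small nucleolar RNAs, so these zeros do not bear on the small RNAs themselves. Among the 5 nearest rows on each side of the locus, 7 genes were above 1 FPKM. None was 2-fold apart between iPSCs and mESCs. Begain, the nearest on the Dlk1 side, was at 4.79 FPKM in D0, 1.77 in D3, 14.0 in D6T-, 4.26 in D6T+, 24.0 in D9T- and 25.9 in D9T+, so that D6T- was the higher fraction on day 6, where Meg3 and Rian were lower.

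How alike the profiles were was described by Pearson's r of log2(FPKM + 1) over the 12 libraries. Points along the time course share parent cultures, and no p is given. Meg3 and Mirg had r = 0.954, Meg3 and Rian 0.941 and Rian and Mirg 0.880. No gene outside the locus, of 10799 that reached 5 FPKM in at least 1 library, was closer to Meg3 than Mirg was, and 1 was closer than Rian. This order was lost under other measures. By Spearman's rho, Meg3 and Mirg had 0.867, and Crip1 (0.958), Calcoco1, Igdcc4, Ankrd33b and Ifi27l2a (0.923) were closer to Meg3. Over the 10 libraries without iPSCs and mESCs, Plxdc1 (r = 0.970) was closer than Mirg (0.963). Dlk1 and Dio3 had r = 0.756, which was 0.325 over the 10 libraries without iPSCs and mESCs. Meg3 and Dlk1 had r = 0.064. The outside genes most like Meg3 were Spata24 (r = 0.946), Rhbdd2 (0.940), Parp10 (0.937), Oas1a (0.936) and Ankrd33b (0.933). Those most like Rian were Ankrd33b, Spata24, Oas1b, Calm2 and Parp10, from 0.898 to 0.866. Those most like Mirg were Rhbdd2, Gm7367, Inha, Rplp2-ps1 and Oas1a, from 0.917 to 0.873. Those most like Dlk1 were Tsr3, Psmd4, Aff1, 1700017B05Rik and Atg16l1, from 0.884 to 0.830.

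Of 16 factors known to act on imprint control, 6 were 2-fold higher in iPSCs than in mESCs and none 2-fold lower (6.79% of all genes were higher and 14.2% apart in either direction), with a median difference of 0.86. Zfp57, the zinc finger protein that guards methylated imprints, was at 270 FPKM in iPSCs, 110 in mESCs, 92.1 in D16S+ and 14.7 in D0. Dnmt3b and Dnmt3l, a DNA methyltransferase and its cofactor, were at 156 and 393 FPKM in iPSCs and at 48.5 and 168 in mESCs. Dnmt3a, the other de novo methyltransferase, was at 12.8 and 19.2 FPKM. Tet1 and Tet2, which oxidise methylated cytosine, were at 20.4 and 20.0 FPKM in iPSCs and at 7.28 and 6.20 in mESCs. Dppa3, known to protect methylated imprints in the early embryo, was at 17.9 and 5.53 FPKM, and at 85.0 FPKM in D16S+.

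Among other imprinted genes, 2 of 7 maternally expressed ones were 2-fold higher in iPSCs than in mESCs, H19 at 448 against 35.9 FPKM and Cdkn1c, a cell cycle inhibitor, at 72.3 against 10.2 FPKM. Of 13 paternally expressed ones 10 were above 1 FPKM, and 6 of these were 2-fold higher. They were Igf2, a growth factor, at 192 against 22.3 FPKM, Peg10 at 185 against 41.0, Nnat at 38.1 against 9.99, Plagl1 at 8.92 against 1.92, Peg3 at 12.3 against 3.01 and Zrsr1 at 9.30 against 2.54. None of either list was 2-fold lower, and the share of all genes 2-fold higher was 6.79%. The median difference was -0.12 in the maternal list and 1.64 in the paternal list.

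**Figure D5:**
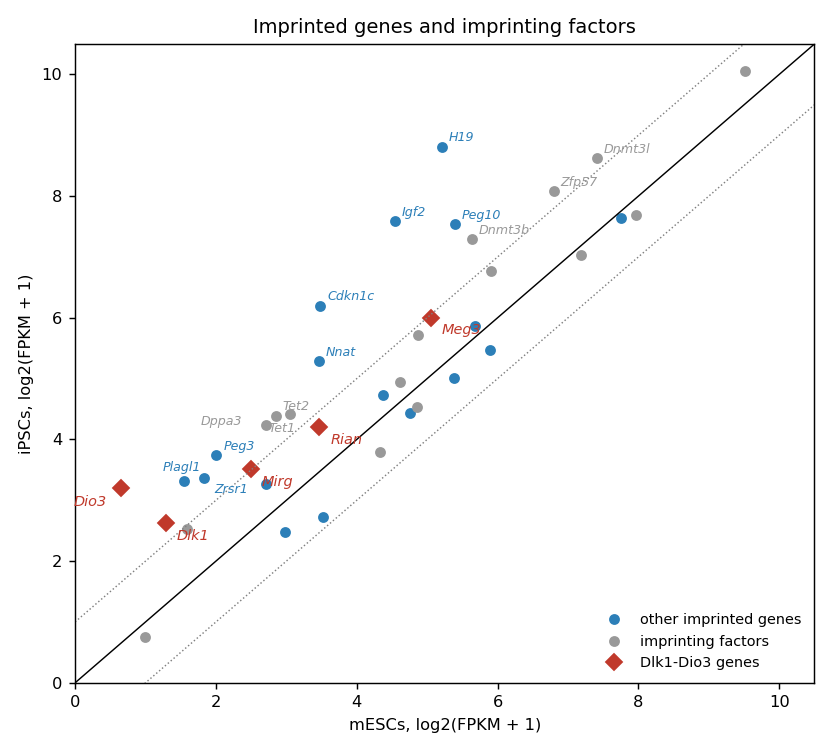
Level in iPSCs (y axis) against mESCs (x axis), both in log2(FPKM + 1), for 5 members (red diamonds), other imprinted genes (blue) and imprinting factors (grey). The solid line marks equal levels and the dotted lines 2-fold. Dlk1 and Mirg lie above the upper dotted line, with 8 other imprinted genes and 6 factors. Dio3, kept through iPSCs alone, lies above it too, and no gene shown lies below the lower one.

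The partners of the proteins were also examined between iPSCs and mESCs, where 14.2% of all genes were 2-fold apart. Of 14 Notch pathway genes, 13 were above 1 FPKM. Dlk2, the close relative of Dlk1, was 2-fold higher at 4.12 against 0.459 FPKM, while the receptor Notch4, the ligands Dll1 and Jag2 and the target Hey1 were 2-fold lower. Of 8 thyroid hormone genes, 7 were above 1 FPKM. The corepressor Ncor1 was 2-fold higher at 53.6 against 19.9 FPKM and the receptor Thra 2-fold lower at 3.60 against 8.72 FPKM. None of 7 microRNA processing genes was 2-fold apart, with a median difference of 0.23.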

How the data were processed

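Sample titles in the labels gave each library its group. The authors mapped reads to mm9 with STAR, removed reads with over 2 mismatches or more than 1 locus, and estimated expression with cuffdiff. Per the labels and the study's methods, the deposited values are FPKM with the lower and upper ends of the interval of each FPKM. Versions, gene annotation and scaling were not given in the sources used here. A further 12 status columns were not used. Genes reaching 1 FPKM in at least 1 library were kept, and log2(FPKM + 1) was compared with Python 3.11.15, pandas 2.3.3, numpy 2.4.6 and scipy 1.17.1 in 9 comparisons plus 3 added after the values were seen. Total depth is unknown. Whole fragments were recovered from FPKM steps for Dio3, Rtl1, 6430411K18Rik and Dio3os. Of 48 values, 47 lay within 0.15 of a whole number. The exception was 6430411K18Rik in D16S+, at a distance of 0.345. The fragments gave Poisson and binomial intervals for counting error only. Dlk1, Meg3, Rian and Mirg did not allow fragments to be recovered. Step and fold functions were tested on simulated data. Positions are 1-based, mm9 (NCBIM37), from the table, with strands from GENCODE M1. Upstream windows were read for table genes with 1 GENCODE strand.

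The members and lists were chosen with earlier results of these data known. Named were the members, rows of the interval and 5 neighbours on each side, listed genes at least 2-fold apart between iPSCs and mESCs with Zfp57, Dnmt3a, Dnmt3l, Tet1 and Dppa3 in any case, markers, and the 5 genes most correlated with each member that reached 1 FPKM in at least 3 libraries. Alternatives were pseudocount, scaling, filter, fold threshold and the measure of likeness.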

Additional observations from a re-analysis of the deposited data

Results flagged for a closer look

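Meg3 and Rian differed in opposite directions between the sorted fractions of 2 days. The fraction of the successful route minus that of the unsuccessful route was -1.03 for Meg3 on day 6 and 0.50 on day 12, and -1.25 for Rian on day 6 and 0.38 on day 12, in log2(FPKM + 1). On day 9, also sorted on Thy-1, the differences were -0.19 and 0.30, and on day 16, also sorted on SSEA-1, they were -0.29 and -0.20, so the sign also changed between days of the same marker for Rian under Thy-1 and for both genes under SSEA-1. With 1 library per fraction, whether the 2 days differ was not tested.

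Mir433 was the only microRNA row of the locus with a value above 0, at 7.26 FPKM in D12S+ and at 0 in the other libraries. The number of fragments behind this value was not recovered, and a row as short as a microRNA hairpin can reach such a level with few of them.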

How the results depend on the processing

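Of 60 log2 differences of the 5 genes, none past 2-fold changed sign, and both scalings left all 60 within 1.5-fold of the deposited values. Scaling to the same total took Meg3 in D6T- over D6T+ to -0.96 and Dlk1 in D9T- over D9T+ to -0.98, both short of 2-fold, and Dlk1 in iPSCs over D0 to 1.07, and it changed the sign of Dio3 in D16S+ over D0, from -0.09 to 0.06, and in mESCs over D0, from -0.04 to 0.01. A pseudocount of 0.1 moved 12 of 60 by more than that, all of Dlk1 or Dio3. Dio3 became 3.62 (iPSCs over mESCs), 3.53 (iPSCs over D0), 3.75 (iPSCs over D16S+), -1.21 (D6T- over D6T+), 0.96 (D16S+ over D16S-) and 0.80 (D9T- over D6T-). Dlk1 became -2.90 (D16S+ over D0), 4.04 (iPSCs over D16S+), -1.95 (D9T- over D9T+), -1.86 (D16S+ over D16S-), 1.07 (D9T- over D6T-) and 2.25 (D9T+ over D6T+). This follows from their levels near or below the pseudocount. With a 4-fold threshold between iPSCs and mESCs, 0 factors and 4 other imprinted genes were higher in iPSCs. Of the members only Dio3 was, which is left out of the counts because the filter kept it through iPSCs alone. The share of all genes past the threshold was 24.3% (iPSCs over mESCs), 23.5% (D3 over D0), 22.1% (iPSCs over D16S+), 21.1% (D6T- over D6T+), 15.7% (D9T- over D9T+) and 16.2% (D12S+ over D12S-) with a pseudocount of 0.1. It was 8.35% (iPSCs over mESCs), 8.49% (D3 over D0), 23.7% (iPSCs over D0), 24% (D16S+ over D0), 7.15% (iPSCs over D16S+), 7.29% (D6T- over D6T+), 4.86% (D9T- over D9T+), 4.6% (D12S+ over D12S-) and 15.9% (D16S+ over D16S-) without the filter, which adds genes near 0. At 4-fold it was 2.19% (iPSCs over mESCs), 3.99% (D3 over D0), 15.4% (iPSCs over D0), 15% (D16S+ over D0), 2.18% (iPSCs over D16S+), 2.75% (D6T- over D6T+), 1.74% (D9T- over D9T+), 0.987% (D12S+ over D12S-) and 6.63% (D16S+ over D16S-).

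Scaling all libraries to the same total FPKM moved the median of all genes by 0.30 (D16S+ over D0), 0.16 (iPSCs over D0), 0.14 (D3 over D0) and -0.12 (iPSCs over D16S+). The share of 2-fold genes that were higher then went from 39.9% to 56.5% (D3 over D0), from 48.9% to 65.6% (D16S+ over D0) and from 36.1% to 22.9% (iPSCs over D16S+). The 5 genes most like a member depended on the measure: under Spearman's rho 1 was shared for Meg3, 1 for Rian, 0 for Mirg and 2 for Dlk1, and without iPSCs and mESCs 2, 1, 0 and 0. No paired analysis was possible because each condition had 1 library, and the 4 within-day pairs of fractions come from different days and 2 sorting markers and are no replicates of 1 contrast. Rtl1, Dio3os and 6430411K18Rik rested on 0 to 55 fragments per library, and Dio3 outside iPSCs on 8 to 29.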

Other observations

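H19, a maternally expressed noncoding RNA, and its neighbour Igf2, which is paternally expressed, were also low in D3 and D6T-. The listed imprinted genes did not share this as a set. In D3 against D0, 2 of 7 maternally expressed genes were 2-fold lower and 0 higher. Of 10 paternally expressed ones above 1 FPKM, 2 were 2-fold lower and 2 higher. Over all genes, 8.67% were 2-fold lower and 14.4% 2-fold apart. Snrpn was at 5.93 FPKM in D0, 24.2 in D3 and 51.7 in D6T-. H19 was at 454 FPKM in D0, 37.5 in D3, 27.0 in D6T- and 199 in D6T+, and at 142 and 169 FPKM in D9T- and D9T+. It was at 355 and 307 FPKM in D12S+ and D12S-, and at 499 and 1152 FPKM in D16S+ and D16S-. Igf2 was at 83.5 FPKM in D0, 15.9 in D3, 5.13 in D6T- and 27.4 in D6T+, and at 59.8 and 184 FPKM in D16S+ and D16S-. On day 16 both were higher in the SSEA-1- fraction, where Meg3 was at 162 FPKM against 132 in the SSEA-1+ fraction.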
